A study of Homo sapiens with 24 samples.

Results

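SFPQ knockdown was compared directly with NONO knockdown in the human line SBC-3, derived from a small cell lung cancer. From the sample titles, 6 libraries of cells given the small interfering RNA (siRNA) siSFPQ-2 or siSFPQ-3 were set against 6 libraries of cells given siNONO-3 or siNONO-4, so 12 of the 24 small RNA libraries of the series entered the contrast and no control library did. Levels in siCtrl libraries, from cells given a control siRNA, are shown for orientation. Each siRNA had 3 libraries. The cells are labelled WT, and every group received 10 nM of its oligonucleotide by reverse transfection and was harvested at 72 h. All miRNA rows were used, with 1 locus per mature miRNA: 2652 mature miRNAs, of which 626 passed the filter on low counts. All values come from 1 cell line and 2 reagents per target, and knockdown of SFPQ and NONO cannot be checked in small RNA data. Nothing in the labels says that the libraries of a group came from separate cultures, so p-values measure only the spread between these libraries, which may be technical.

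SFPQ and NONO belong to the same family of nuclear RNA-binding proteins, form dimers with each other and are components of paraspeckles, nuclear bodies built on the long noncoding RNA NEAT1. MicroRNAs are cut from a primary transcript by Drosha with DGCR8 in the nucleus and by Dicer in the cytoplasm, and the hairpin yields a product from its 5p arm and another from its 3p arm. Usually a single arm accumulates in Argonaute, and bases 2 to 8 of the mature miRNA, the seed, set most of its target choice. The comparison asks which miRNAs stood at different levels when either partner was depleted.

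The sequences below are those on which the comparison turns, from RefSeq for GRCh38.p14, written 5′ to 3′ with the seed in capitals. The first set shares the seed AAGUGCU, and all 5 were higher in the siSFPQ libraries.
miR-302a-3p: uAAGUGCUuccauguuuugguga
miR-302b-3p: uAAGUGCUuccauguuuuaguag
miR-302c-3p: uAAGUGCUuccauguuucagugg
miR-302d-3p: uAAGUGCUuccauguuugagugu
miR-302e: uAAGUGCUuccaugcuu
The second set carries AAAGUGC, in which the AAGUGC of the miR-302 seed stands 1 base further from the 5′ end. On the TMM scale, explained below, all 6 tested miRNAs with this seed were lower, and 3 are shown. With either alternative scaling given below, miR-93-5p and miR-106b-5p did not pass as lower. The rest belong to the miR-17/92 and miR-106a/miR-363 clusters, in which 3 of 11 and 1 of 6 tested products were lower with either. The decrease across this seed is thus a result of the TMM scale.
miR-17-5p: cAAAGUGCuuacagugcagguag
miR-20a-5p: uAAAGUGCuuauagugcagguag
miR-93-5p: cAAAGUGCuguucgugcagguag
The third set shares AGCAGCA, yet its members moved in both directions on the TMM scale.
miR-497-5p: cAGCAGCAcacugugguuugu
miR-195-5p: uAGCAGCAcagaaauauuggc
miR-424-5p: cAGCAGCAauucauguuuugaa
The miR-34 products, lower in the siSFPQ libraries, have seeds that are offset by 1 base from each other.
miR-34a-5p: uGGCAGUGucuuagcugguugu
miR-34b-5p: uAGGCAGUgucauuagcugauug
Members of the let-7 family share GAGGUAG, and all 9 tested miRNAs with that seed were lower on the TMM scale. Of the 13 tested let-7 products, 3 were lower when scaled by library totals, and 3 when scaled by spike-ins. Most miRNAs with this seed share their counts, as given below, so their agreement is not that of separate members.
let-7a-5p: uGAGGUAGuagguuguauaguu
let-7i-5p: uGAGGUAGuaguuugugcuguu
In the miR-200 family, the seed AAUACUG is shared by members that differed and by miR-429, which did not pass the test.
miR-200c-3p: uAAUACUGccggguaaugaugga
miR-200b-3p: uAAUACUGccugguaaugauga
miR-429: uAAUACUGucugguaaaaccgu
The last set holds products outside these families with large differences, the less abundant arms of their hairpins among them.
miR-2355-5p: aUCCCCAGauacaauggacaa
miR-181a-3p: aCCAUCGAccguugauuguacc
miR-215-3p: uCUGUCAUuucuuuaggccaaua
miR-135b-3p: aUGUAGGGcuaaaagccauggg
miR-12135: uAAAGGUUuguuuguaaa
miR-653-5p: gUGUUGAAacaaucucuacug
miR-675-5p: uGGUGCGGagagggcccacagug
Sequences of 555 of the 626 tested miRNAs were matched in RefSeq. The mature sequences of miR-21-3p, miR-34c-5p, miR-141-5p and miR-598-3p are not shown.

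Of the 626 tested miRNAs, 354 (56.5%) differed between SFPQ and NONO knockdown at an adjusted p under 0.05 (quasi-likelihood test of edgeR, Benjamini-Hochberg adjusted over the 626, as for every adjusted p below unless another test is named). In 186 (29.7%) the level was higher in the siSFPQ libraries, and in 168 (26.8%) it was lower. The median log2 fold change, siSFPQ minus siNONO, was 1.29 among the higher and -0.90 among the lower miRNAs, and 131 and 73 of them differed at least 2-fold. Without any model, the 6 siSFPQ libraries all lay above the 6 siNONO libraries in 122 miRNAs (19.5%) and all below in 100 (16%). Each of the 4 pairings of an SFPQ siRNA with a NONO siRNA was also tested, and 184 miRNAs (29.4%) passed in the pooled contrast and in all 4 pairings in the same direction, 115 higher and 69 lower. The pairings share libraries and are no independent check. Directly against each other, siSFPQ-3 and siSFPQ-2 differed in 4 miRNAs and siNONO-4 and siNONO-3 in 0 (38 at an unadjusted p under 0.05, and 7 by DESeq2). In a principal component analysis of the 12 libraries, the first component held 75.4% of the variance and separated the targets, with siSFPQ libraries from -20.7 to -9.84 and siNONO libraries from 13.7 to 18.5.

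The scale moved the balance of directions. The main values use TMM factors, which placed the centre of the tested miRNAs near no difference (median log2 fold change -0.005), although 56.5% of them differed. On library totals the median was 0.33, with 257 higher and 93 lower, so that 73.4% of the calls were higher against 52.5% on the TMM scale. On the totals of the spike-in oligonucleotides the median was 0.26, with 228 higher and 95 lower (70.6% higher). No miRNA called on the TMM scale was called in the opposite direction on either of these scales. Library totals and spike-in totals are called both other scales below. Differences are on the TMM scale, relative to the median of the tested miRNAs, and where a family's count changed with the scale, the other counts stand beside it.

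**Figure D1:**
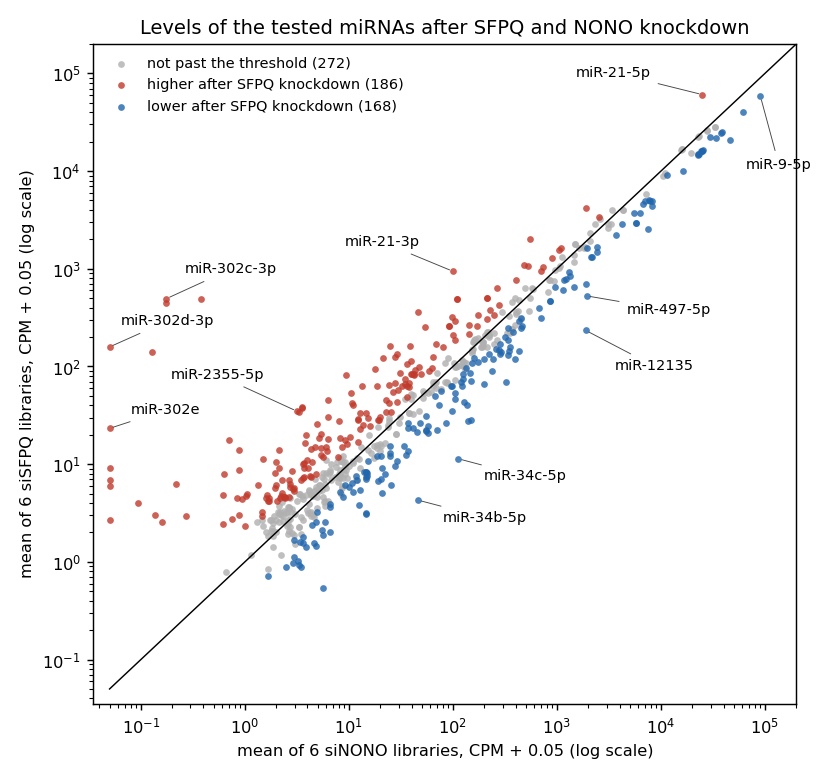
Mean level of each tested miRNA in the 6 siNONO libraries (x axis) and the 6 siSFPQ libraries (y axis), both in CPM plus 0.05 on log scales, coloured by the test. The line marks equal levels: the miR-302 products stand far above it with siNONO means near 0, miR-34b-5p, miR-34c-5p and miR-12135 stand below it, and most miRNAs of 1000 CPM or more lie near it or slightly below.

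Depth was of the same order for both targets, while slightly more miRNAs were detected in the siSFPQ libraries at equal depth. The siSFPQ libraries held 2433943 to 3693324 miRNA counts and the siNONO libraries 2227390 to 4279644. At the depth of the shallowest of the 12 libraries, 1065 ± 27.6 miRNAs (SD, n = 6) would be detected in siSFPQ libraries and 1006 ± 9.02 in siNONO libraries (exact permutation test, two-sided, adjusted p = 0.00866 over 4 library quantities; the raw p of 0.00216 is the smallest that 6 against 6 can give). The spike-in share of all counts, 3.04% ± 0.824 and 2.82% ± 0.176 (SD, n = 6), and the share of the 10 most abundant miRNAs, 40.9% ± 2.31 and 41.6% ± 2.91, did not pass (exact permutation tests, adjusted p = 0.617 for each).

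The miR-302/miR-367 cluster, which marks embryonic stem cells, gave the largest differences. All 8 tested products of the hairpins on chromosome 4 (112647877 to 112648547 on hg38, minus strand, in the noncoding gene AC106864.1) were higher in the siSFPQ libraries, on every scale and in all 4 pairings of siRNAs, and in all 8 the lowest siSFPQ library lay above the highest siNONO library. Levels are given in CPM, counts per 1000000 counts of the TMM-scaled library. For miR-302c-3p the siSFPQ libraries had 506, 300.5 and 47.9 CPM with siSFPQ-2 and 1093, 839 and 180 CPM with siSFPQ-3. The siNONO libraries had 0 CPM in 4 of 6 and at most 0.492 CPM, and the siCtrl libraries at most 0.332 CPM. The ratio of the summed counts, 12116 against 3 scaled for depth, was 3476 (exact 95% counting interval 1189 to 16857).

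The other products of the cluster followed the same order. miR-302b-3p ranged from 46.5 to 985 CPM (median 365) against 0 to 0.492, and miR-302a-3p from 9.52 to 324 CPM (median 116) against 0 to 0.473. The count ratios were 3116 (1066 to 15110) and 2964 (532 to 117107). miR-302d-3p, with 11.3 to 345 CPM (median 133), had 0 counts in all siNONO libraries and was at least 1116-fold higher, with the siNONO group set to a floor of 3 counts in all. miR-302a-5p, the more abundant arm of its hairpin, ranged from 58.2 to 923 CPM (median 419) against 0 to 0.539, a log2 fold change of 10.24 ± 0.64 (SE; adjusted p = 5.71e-12). The rarer products also had 0 siNONO counts: miR-302c-5p was at least 62.5-fold higher, miR-367-3p at least 47.6-fold and miR-302b-5p at least 41.0-fold. The median log2 fold change of the 8 was 10.46 as fitted and 10.18 with those products at their bound or ratio. Within the siSFPQ libraries the levels spread widely, and replicate 3 was the lowest in both siRNA groups for miR-302a-3p, miR-302b-3p, miR-302c-3p, miR-302d-3p and miR-302a-5p. The related miR-371/miR-373 cluster did not follow: miR-372-3p and miR-373-3p had 0 counts in all 12 libraries.

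miR-302e (chromosome 11, 7234771 to 7234787, plus strand, intergenic) ranged from 2.93 to 50.9 CPM in siSFPQ libraries and had 0 counts in siNONO libraries, at least 164-fold. It shares its first 14 of 17 bases with miR-302a-3p, miR-302b-3p, miR-302c-3p and miR-302d-3p, so its counts cannot be told apart from reads of those miRNAs.

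**Figure D2:**
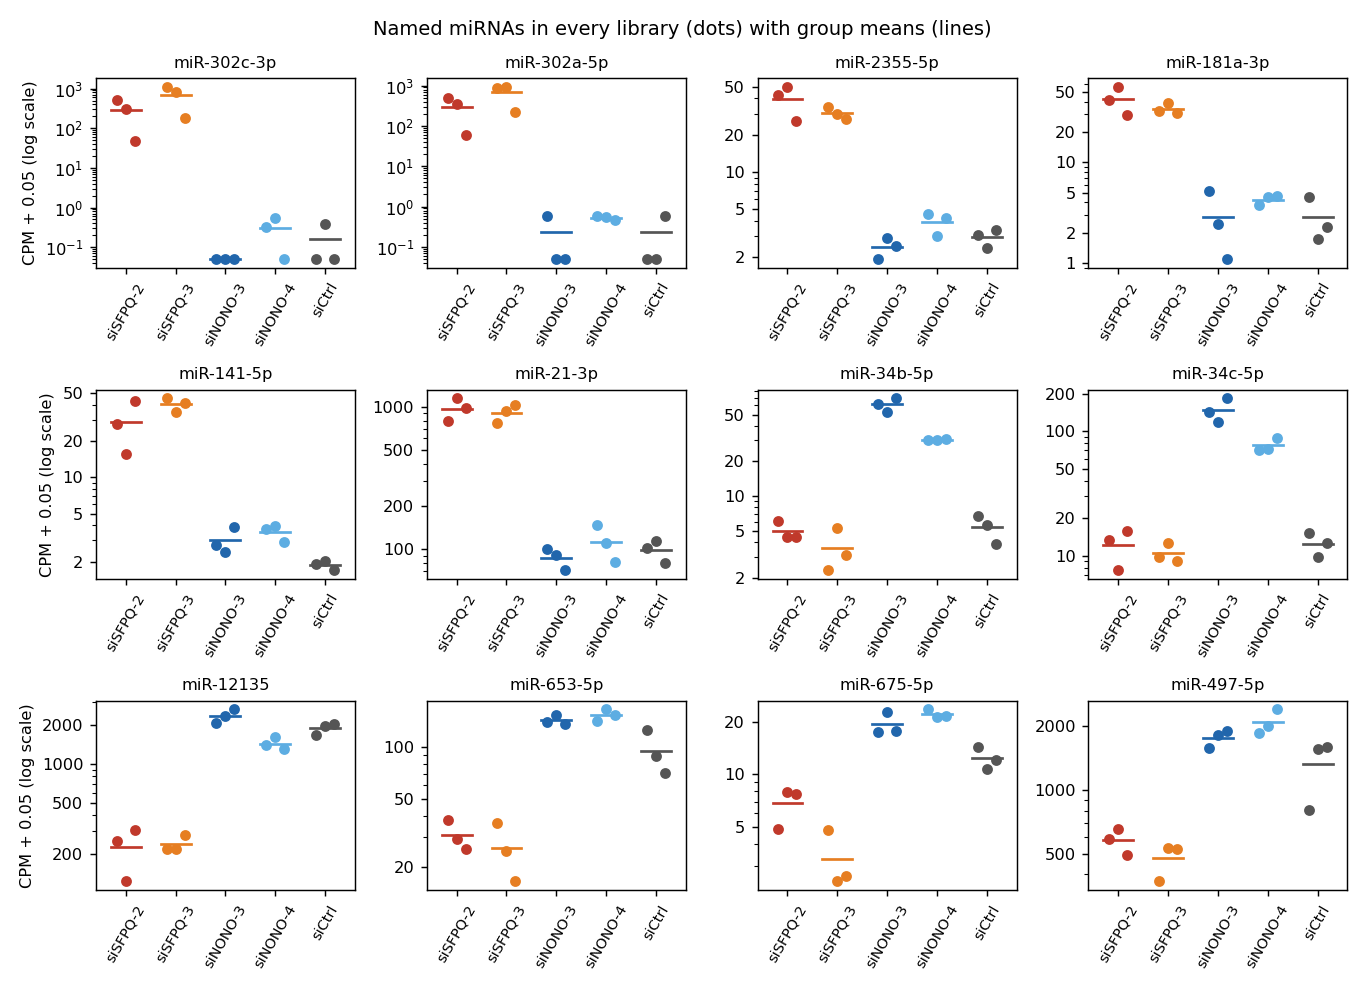
Level of 12 named miRNAs in every library of 5 groups, as CPM plus 0.05 on log scales, with dots for libraries and lines for group means. In all 12 the siSFPQ-2 and siSFPQ-3 dots are separated from the siNONO-3 and siNONO-4 dots. The siCtrl dots lie near the siSFPQ dots for miR-34b-5p and miR-34c-5p, and between the targets for miR-653-5p and miR-675-5p. For miR-497-5p the siCtrl dots run from between the targets to the lower edge of the siNONO dots. In the other panels they lie nearer to the siNONO dots.

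Outside the miR-302 sequences, the 4 largest increases among miRNAs with a mean of 10 CPM or more were in products of hairpins within introns. miR-2355-5p (chromosome 2, 207110043 to 207110063, minus strand, an intron of KLF7, which encodes a Krüppel-like transcription factor) ranged from 26.0 to 49.6 CPM (median 31.9) in siSFPQ libraries, against 1.89 to 4.48 (median 2.90) in siNONO and 2.32 to 3.30 in siCtrl libraries. The groups did not overlap, and the log2 fold change was 3.52 ± 0.21 (adjusted p = 3.29e-12). Its partner arm miR-2355-3p differed by 2.83 ± 0.17. miR-141-5p (chromosome 12, 6964113 to 6964134, plus strand, an intron of MIR200CHG) ranged from 15.5 to 45.2 CPM against 2.37 to 3.94, a log2 fold change of 3.37 ± 0.26 (adjusted p = 1.41e-10). miR-181a-3p (chromosome 1, 198859069 to 198859090, minus strand, an intron of MIR181A1HG) ranged from 29.6 to 55.9 CPM against 1.04 to 5.12, and differed by 3.41 ± 0.26 (adjusted p = 1.41e-10). miR-181c-3p, which has a similar sequence, had nearly the same values (28.9 to 56.2 CPM against 1.04 to 5.12), and the source of these reads is uncertain. miR-629-5p, in an intron of TLE3, differed by 2.95.

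A few miRNAs under 10 CPM, singled out after their values were seen, were nearly absent from the siNONO libraries. miR-4799-5p, in an intron of ARHGAP10, had 5.17 to 7.32 CPM in siSFPQ libraries and 0 to 0.539 in siNONO libraries (139 against 3 counts, ratio 39.9, 95% counting interval 13.4 to 196). miR-4796-5p, in an intron of ZBTB20, had 60 siSFPQ counts and 0 siNONO counts, at least 17.2-fold, and its partner miR-4796-3p had 93 against 1 (ratio 80.0, 14.02 to 3195). miR-629-3p, the partner of miR-629-5p, ranged from 10.3 to 16.3 CPM against 0 to 1.62, a log2 fold change of 3.85 ± 0.40 (adjusted p = 2.23e-08).

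Families of epithelial miRNAs were higher after SFPQ knockdown. In the miR-200 family, repressors of the ZEB factors that drive epithelial-mesenchymal transition, 6 of 7 tested members were higher and 0 lower, on every scale (median log2 fold change 2.21, against -0.005 over all tested miRNAs). miR-141-3p ranged from 194 to 306 CPM (median 254) in siSFPQ libraries, 38.2 to 75.9 (median 48.5) in siNONO libraries and 19.1 to 42.4 in siCtrl libraries. The siSFPQ libraries all lay above the others, with a log2 fold change of 2.26 ± 0.18 (adjusted p = 2.72e-10). miR-200c-3p differed by 2.21 ± 0.24, miR-200a-3p by 2.16 ± 0.17 and miR-200b-3p by 1.81 ± 0.23. miR-429, encoded downstream of miR-200b and miR-200a on chromosome 1 (1169055 to 1169076, plus strand, in a group of hairpins that starts at 1167160), had 0.517 to 3.32 CPM against 2.37 to 4.43, and its log2 value of -0.82 ± 0.47 did not pass (adjusted p = 0.141; 95% interval -1.79 to 0.15).

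All 6 tested products of miR-192, miR-194 and miR-215, known from epithelia of the gut and kidney and from liver, were higher on every scale (median 1.34). miR-192-5p ranged from 3757 to 4896 CPM (median 4194) against 1616 to 2346 (median 1870), without overlap, and differed by 1.15 ± 0.16 (adjusted p = 2.32e-06). miR-215-5p (chromosome 1, 220117916 to 220117936, minus strand, intergenic) ranged from 1694 to 2429 CPM against 434 to 742 and differed by 1.88 ± 0.20.

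All 9 tested products of the miR-181 family, known for its role in lymphocyte development, were also higher on every scale (median 2.42). The 5p products, which carry the family seed ACAUUCA, differed by 1.04 to 1.59: miR-181a-5p ranged from 58.6 to 125 CPM against 20.1 to 51.4, and differed by 1.52 ± 0.29 (adjusted p = 0.000123). The 3p products differed more, from 2.42 for miR-181a-2-3p to 4.0 ± 0.43 for miR-181b-3p (2.93 to 11.8 CPM against 0 to 1.24). For miR-181b-3p the siCtrl libraries, at 1.87 to 3.30 CPM, lay above all siNONO libraries and overlapped the lowest siSFPQ library.

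The X-linked cluster of miR-424, miR-503, miR-542 and miR-450, which holds miRNAs that restrain the cell cycle, had 9 of 10 tested products higher and 0 lower (10 higher on both other scales; median 1.33). miR-450a-5p differed by 1.96 ± 0.40 (19.8 to 60.5 CPM against 3.71 to 21.6, with overlap) and miR-424-3p by 2.37 ± 0.28 (20.9 to 30.7 against 3.13 to 7.38, without overlap). miR-424-5p, with 142 to 376 CPM against 83.7 to 230, overlapped more and differed by 0.88 ± 0.33 (adjusted p = 0.0286), passing in 0 of the 4 pairings of siRNAs.

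miR-21, which rises in inflammation and in many tumours, was among the most abundant miRNAs of these cells and was higher after SFPQ knockdown. miR-21-5p (chromosome 17, 59841273 to 59841294, plus strand, within an exon of VMP1) ranged from 50476 to 72103 CPM (median 60429) in siSFPQ libraries, 14269 to 42319 (median 24409) in siNONO libraries and 23315 to 43806 in siCtrl libraries. The groups did not overlap, and the log2 fold change was 1.29 ± 0.20 (adjusted p = 7.66e-06). Its partner miR-21-3p ranged from 770 to 1151 CPM against 71.2 to 148 and differed by 3.25 ± 0.17 (adjusted p = 4.33e-13). Among the 9 tested inflammation-responsive miRNAs, 4 were higher and 0 lower (5 higher on both other scales), against 29.7% higher and 26.8% lower over all tested miRNAs. In this list miR-146a-5p, induced by NF-kB signalling, had a log2 value of -0.23 ± 0.18.

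The largest decreases were in the miR-34 family, which p53 induces. All 5 tested products were lower on every scale (median -1.73). miR-34b-5p (chromosome 11, 111512950 to 111512972, plus strand, intergenic) had 6.04, 4.42 and 4.39 CPM with siSFPQ-2 and 2.26, 5.26 and 3.10 CPM with siSFPQ-3. It had 61.4, 52.5 and 69.1 CPM with siNONO-3 and 30.3, 30.3 and 30.9 CPM with siNONO-4. In the siCtrl libraries it stood at 3.85 to 6.75 CPM, the level of the siSFPQ libraries. The log2 fold change was -3.35 ± 0.22 (adjusted p = 1.11e-11), and the siNONO-3 libraries all lay above the siNONO-4 libraries. miR-34c-5p, from the same locus (111513451 to 111513473), ranged from 7.57 to 15.7 CPM in siSFPQ, 70.1 to 184 in siNONO and 9.63 to 15 in siCtrl libraries, and differed by -3.24 ± 0.21. miR-34a-5p, encoded on chromosome 1 (9151735 to 9151756, minus strand, an exon of MIR34AHG), ranged from 1699 to 3203 CPM in siSFPQ, 5389 to 10210 in siNONO and 2688 to 3761 in siCtrl libraries, and differed by -1.54 ± 0.12 (adjusted p = 1.41e-10). For these 3 products the siNONO libraries stood above the siCtrl libraries and the siSFPQ libraries near them. The ASO-Ctrl libraries, from cells given a control antisense oligonucleotide, had higher means of 15.2, 38 and 4055 CPM, still below the siNONO libraries.

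For other large decreases the siSFPQ libraries stood apart. miR-12135 (chromosome 15, 73299962 to 73299979, plus strand, an intron of NEO1) ranged from 123 to 308 CPM (median 236) in siSFPQ libraries, 1297 to 2650 (median 1836) in siNONO and 1662 to 2042 in siCtrl libraries. It differed by -2.98 ± 0.18 (adjusted p = 3.29e-12). miR-4454, at 37.3 to 94.8 CPM against 235 to 385, differed by -2.22 ± 0.18, with siCtrl at 326 to 526 CPM. On chromosome 8, miR-598-3p, in an intron of XKR6, ranged from 90.9 to 160 CPM against 340 to 500 (siCtrl 336 to 373) and differed by -1.76 ± 0.14, and miR-6844, in an exon of TATDN1, differed by -2.04 ± 0.29.

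For a further group the siCtrl libraries lay between the knockdowns. miR-653-5p (chromosome 7, 93482823 to 93482843, minus strand, an intron of the calcitonin receptor gene CALCR) ranged from 16.5 to 37.7 CPM in siSFPQ, 136 to 166 in siNONO and 71.0 to 125 in siCtrl libraries, and differed by -2.39 ± 0.17 (adjusted p = 5.81e-11). Its partner miR-653-3p differed by -2.36 ± 0.25. miR-675-5p (chromosome 11, 1996800 to 1996822, minus strand, an exon of the imprinted noncoding gene H19) ranged from 2.41 to 7.89 CPM in siSFPQ, 17.5 to 23.4 in siNONO and 10.6 to 14.2 in siCtrl libraries, and differed by -2.12 ± 0.20 (adjusted p = 4.76e-09).

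The control groups enter no test here, and their levels are given as a description. With 0.5 CPM added, the siCtrl mean was nearer to the siNONO mean than to the siSFPQ mean, as a log ratio, in 173 of 186 miRNAs that were higher and in 141 of 168 that were lower. Without replicate 1 of siCtrl, a choice made after the data were seen, the counts were 168 and 123. The ASO-Ctrl mean was nearer to siNONO in 171 and 151. It lay between the knockdowns in 94 and 76 miRNAs, and the siCtrl mean did so in 87 and 89. The share over all tested miRNAs was not counted, so none of these counts can be read as particular to the called miRNAs.

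Several abundant families were lower after SFPQ knockdown by a modest amount that depended on the scale. In the let-7 family, which promotes differentiation and restrains RAS and MYC, 12 of 13 tested products were lower and 0 higher (median -0.63), but 3 were lower on library totals and 3 with spike-in scaling. let-7a-5p ranged from 11180 to 22367 CPM (median 16870) against 18134 to 31138 (median 25752), with overlap, and differed by -0.63 ± 0.18 (adjusted p = 0.00362). It shares its counts with let-7b-5p, let-7c-5p, let-7e-5p, let-7f-5p, let-7g-5p and miR-98-5p, whose values are not separable. let-7i-5p, counted apart from them, ranged from 123 to 190 CPM against 248 to 479 without overlap and differed by -1.19 ± 0.15 (adjusted p = 8.08e-07).

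The MYC-induced miR-17/92 cluster in MIR17HG (chromosome 13, 91350618 to 91351382, plus strand) had 8 of 11 products lower and 1 higher (median -0.62), with 3 lower and 1 higher on both other scales. miR-17-3p ranged from 469 to 786 CPM against 1054 to 1804 without overlap and differed by -1.16 ± 0.16 (adjusted p = 2.14e-06). miR-18a-5p, which shares counts with miR-18b-5p, differed by -0.97 ± 0.17, miR-20a-3p by -0.86 ± 0.16 and miR-20a-5p by -0.64 ± 0.13. miR-18a-3p differed by -0.64 ± 0.26, miR-19a-3p by -0.62 ± 0.21, miR-19b-1-5p by -0.52 ± 0.15 and miR-17-5p by -0.50 ± 0.19. miR-92a-3p (-0.36 ± 0.25) and miR-19a-5p (-0.48 ± 0.33) did not pass, and miR-92a-1-5p was higher (0.51 ± 0.21, adjusted p = 0.0459). In the paralogous clusters, miR-106a/miR-363 had 5 of 6 lower and 1 higher (1 and 1 on both other scales), and miR-106b/miR-25, in an MCM7 intron, had 3 of 6 lower and 1 higher (0 and 1 on both other scales).

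The miR-148/miR-152 family, whose targets include DNMT1, had all 6 tested products lower (median -0.74; 4 on both other scales). miR-148a-3p ranged from 2995 to 4564 CPM against 5357 to 6945 without overlap and differed by -0.77 ± 0.11. The miR-15/miR-16 family, which restrains cyclins and BCL2, had 7 of 11 lower and 0 higher (4 and 0 on both other scales). The largest difference was in miR-497-5p (chromosome 17, 7017979 to 7017999, minus strand, an intron of AC040977.2) ranged from 370 to 655 CPM (median 530) in siSFPQ, 1575 to 2410 (median 1878) in siNONO and 803 to 1591 in siCtrl libraries, and differed by -1.87 ± 0.16 (adjusted p = 7.03e-10). miR-195-5p, from the neighbouring hairpin, differed by -0.55 ± 0.13 and miR-16-5p by -0.40 ± 0.12. With miR-424-5p at 0.88, the seed AGCAGCA was thus carried by 6 tested miRNAs of which 4 were lower and 1 higher on the TMM scale. Carriers of this seed were not counted on both other scales. Among relatives of miR-130, miR-301 and miR-454, 7 of 10 were lower and 1 higher (4 lower and 3 higher on library totals, 3 and 2 with spike-in scaling): miR-301a-5p differed by -1.75 ± 0.19, and miR-130a-5p by 1.23 ± 0.23.

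The counts of further lists stand against all 626 tested miRNAs, of which 29.7% were higher and 26.8% lower. On library totals 257 were higher and 93 lower, and with spike-in scaling 228 and 95. Counts such as 2 of 7, 2 of 6 or 3 of 9 are near those shares. Among the X-linked intronic groups, 6 of 13 products in CLCN5 introns were lower and 0 higher (4 lower on both other scales), led by miR-188-5p (-1.46 ± 0.25) and miR-660-5p (-1.26 ± 0.14). Of 5 products in FTX, 4 were lower (1 on both other scales), led by miR-421, at 57.9 to 83.5 CPM against 162 to 220 and -1.57 ± 0.13. In the primate-specific miR-548 family, derived from short transposable elements, 28 of 68 tested members were higher and 4 lower (44 and 2 on library totals, 35 and 1 with spike-in scaling), with miR-548j-3p at 2.47 ± 0.34. The miR-30 family had 5 of 11 higher, all of them 3p products (10 higher on library totals and 8 with spike-in scaling), with miR-30d-3p at 0.92 ± 0.21 and miR-30a-5p at 0.07. The clusters of miR-23, miR-24 and miR-27 had 4 of 8 higher (7 on both other scales), led by miR-27a-5p (1.74 ± 0.32). Of the 8 tested products of the imprinted 14q32 cluster, 0 passed on the TMM scale and 1 was higher on both other scales. In the miR-29 family 2 of 7 were lower, but on library totals 3 were higher and 0 lower, and on spike-in totals 0 passed. Of the mirtrons and precursors made without Drosha, 2 of 6 were lower (1 on both other scales), near the share of all tested miRNAs. The miR-99/miR-100/miR-125 families had 1 of 9 higher and 3 lower (2 and 1 on library totals, 2 and 3 with spike-in scaling). The sensory miR-183/miR-96/miR-182 cluster had 2 of 6 higher (3 on library totals, 2 with spike-in scaling), and miR-221 with miR-222 had 2 of 4 higher and 1 lower (2 and 0 on both other scales).

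**Figure D3:**
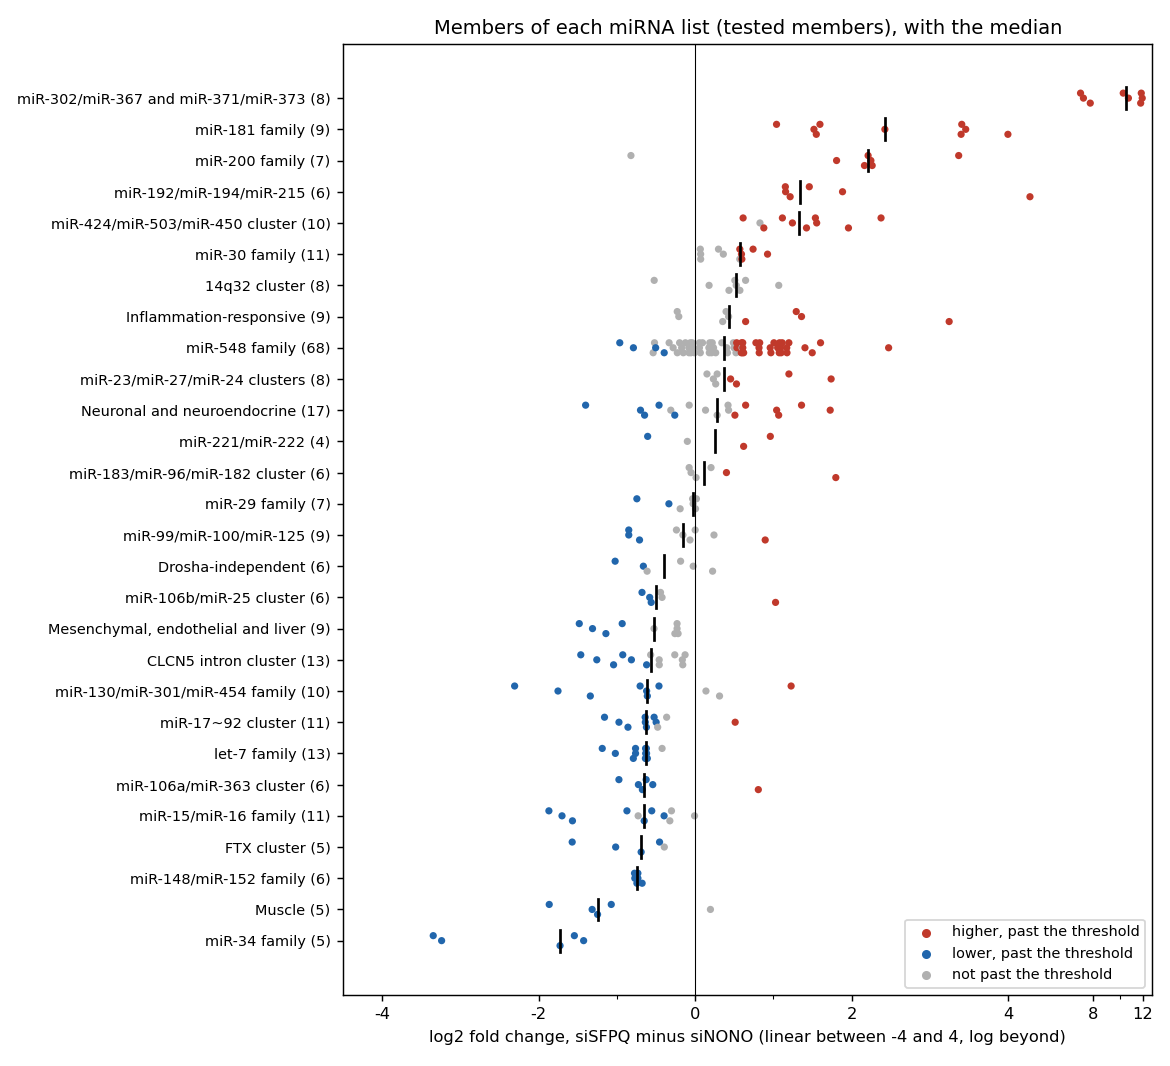
Log2 fold change, siSFPQ minus siNONO, of every tested member of each list with at least 3 tested members, with a black bar at the list's median and colours for the test; the axis is linear between -4 and 4 and logarithmic beyond. The miR-302/miR-367 products stand at the right edge, all members of the miR-181 and miR-192/miR-194/miR-215 lists lie above 0, and all members of the miR-34, miR-148/miR-152, FTX and let-7 lists lie below 0.

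The labelled cell type was checked with marker miRNAs. The summed level of 8 neuroendocrine miRNAs was 69356 to 92407 CPM in siSFPQ and 104148 to 128554 CPM in siNONO libraries, carried mainly by miR-9-5p, while miR-375-3p, abundant in many neuroendocrine tumours, had 3.88 to 8.55 and 0.347 to 4.92 CPM and miR-124-3p at most 1.21 CPM. In total RNA from a culture, fewer cells of a type and less RNA per cell cannot be told apart. Of the 17 tested members of the neuronal and neuroendocrine list, 6 were higher and 5 lower (9 and 3 on both other scales). Over all tested miRNAs 29.7% were higher and 26.8% lower. In this list miR-7-5p fell by 0.70 ± 0.10 on the log2 scale and miR-218-5p by 1.40 ± 0.15, and miR-375-3p differed by 1.73 ± 0.40. The sum of 5 epithelial markers was 462 to 667 CPM against 91.3 to 160, and that of 7 stem cell markers 116 to 2762 CPM against 0 to 0.984, with miR-372-3p and miR-373-3p at 0. The sum of 7 blood markers, 28.4 to 67.5 CPM against 77.5 to 171, was carried mainly by miR-142-3p (23.5 to 58.6 against 64.3 to 151). In these 12 libraries miR-144-3p, miR-451a, miR-223-3p and miR-150-5p were at most 1.13 CPM, and miR-486-5p was at 0. Of 5 tested muscle miRNAs 4 were lower, with miR-133a-3p at 18.4 to 32.5 CPM against 39.5 to 78.1. Of 9 tested products on the list of mesenchymal, endothelial and liver miRNAs 4 were lower, against 26.8% of all tested miRNAs, with miR-126-3p at 544 to 664 CPM against 860 to 1534 (-0.93 ± 0.12). The other 5, from miR-199a, miR-199b and miR-145, did not pass. Whether the share of any cell type differed between the libraries was not tested.

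The most abundant miRNA of the 12 libraries, miR-9-5p (chromosome 5, 88666902 to 88666924, minus strand, an exon of LINC00461), a neural miRNA, ranged from 46767 to 69708 CPM against 77005 to 103868 and differed by -0.65 ± 0.10 (adjusted p = 1.21e-05). miR-335-5p and miR-335-3p, from an intron of the imprinted gene MEST, differed by -0.62 ± 0.16 and -1.17 ± 0.12. miR-335-3p ranged from 14290 to 25858 CPM against 41379 to 51472 without overlap. Abundant miRNAs were more often lower than higher on the TMM scale. Of 81 miRNAs with a mean of 1000 CPM or more, 41 were lower (50.6%) and 7 higher (8.64%), whereas of 233 under 10 CPM, 36 were lower (15.5%) and 72 higher (30.9%). On library totals the abundant group had 15 lower and 19 higher and on spike-in totals 14 and 13, and the group under 10 CPM had 21 lower and 100 higher and 22 and 91. The direction among abundant miRNAs thus depended on the scale. Under 10 CPM, higher calls outnumbered lower calls on all of these scales. On the TMM scale the 30.9% higher there was near the 29.7% of all tested miRNAs. The largest share of higher calls, 41.6%, was at 10 to under 100 CPM, where 29.2% were lower. At 100 to under 1000 CPM, 24.6% were higher and 29.1% lower. The precision differed too: the 95% interval of the log2 fold change had a median half-width of 0.69 under 10 CPM and 0.32 at 1000 CPM or more.

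**Figure D4:**
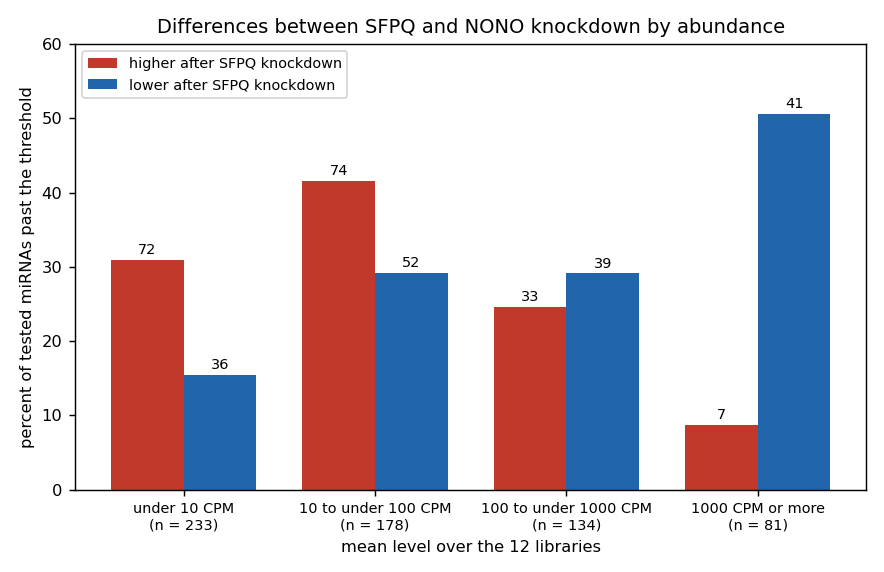
Percent of tested miRNAs that were higher (red) or lower (blue) in siSFPQ than in siNONO libraries on the TMM scale, by mean level over the 12 libraries, with the number of miRNAs above each bar. From the rarest to the most abundant group, higher calls make up 30.9%, 41.6%, 24.6% and 8.64%. Lower calls make up 15.5%, 29.2%, 29.1% and 50.6%.

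Position in the genome and base composition were described for the called miRNAs. Of 403 tested miRNAs in introns, 121 were higher (30.0%) and 107 lower (26.6%), near the 29.7% and 26.8% of all tested miRNAs. Of 90 in exons, 16 were higher (17.8%) and 39 lower (43.3%), and of 133 between genes, 49 (36.8%) and 22 (16.5%). On library totals the intronic group had 165 higher and 59 lower, the exonic group 25 and 22, and the intergenic group 67 and 12. With spike-in scaling these were 148 and 60, 21 and 23, and 59 and 12. The median GC content of the mature sequences was 44.2% for 166 higher, 45.5% for 152 lower and 47.6% for 237 other miRNAs, with quartiles that overlapped (36.4% to 51.6%, 36.4% to 54.5% and 40.9% to 56.5%). A 5′ U stood in 36.1%, 43.4% and 40.9%. Within 10 kb on a strand, 23 groups held at least 4 tested miRNAs. On the TMM scale, 14 of them had at least 3 past the threshold: 4 with higher members only, 6 with lower members only and the others mixed. As 56.5% of all tested miRNAs passed, these counts cannot be read as particular to such groups. The groups were not counted on both other scales.

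The arms of a hairpin come from the same precursor, and the difference between their log2 fold changes does not depend on the scale. In 183 hairpins both arms were tested. Both arms were higher in 41 and both lower in 37 on the TMM scale, against 63 and 14 on library totals and 53 and 13 with spike-in scaling. On the TMM scale only the more abundant arm passed in 31, only the less abundant arm in 31, and neither in 40. The log2 fold change of the less abundant arm was above that of the more abundant arm in 115 of the 183, with a median gap of 0.18. On the TMM scale 67 less abundant arms were higher and 45 lower, against 51 and 61 of the more abundant arms. On library totals these counts were 87 and 27 against 74 and 27, and on spike-in totals 79 and 28 against 62 and 27.

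Wide gaps with the less abundant arm above, chosen after their values were seen, were those of miR-215, miR-10b, miR-21 and miR-135b. In 68 hairpins the less abundant arm had the lower log2 fold change. The widest of these gaps were -4.58 in miR-302b, -4.14 in miR-302c and -2.36 in miR-181c. The arms of miR-302b and miR-302c had 0 or 3 siNONO counts, so their fitted gaps are uncertain, as is the source of the miR-181c-3p reads. In miR-301b the less abundant arm was also the lower one, with miR-301b-5p at -2.31 and miR-301b-3p at -0.61. miR-215-3p ranged from 8.05 to 27.8 CPM in siSFPQ and 0 to 1.24 in siNONO libraries and differed by 4.78 ± 0.39, against 1.88 for miR-215-5p. miR-10b-3p ranged from 23.7 to 39.9 CPM against 3.42 to 10.1 (2.30 ± 0.28), while miR-10b-5p, which shares its counts with miR-10a-5p, had a log2 value of -0.10 ± 0.16. The level of miR-21-3p was 1.07% to 2.25% of that of miR-21-5p in siSFPQ libraries, 0.35% to 0.50% in siNONO and 0.23% to 0.39% in siCtrl libraries. miR-135b-3p stood at 13.3% to 27.8% of miR-135b-5p in siSFPQ libraries and 2.76% to 6.34% in siNONO libraries, but miR-135b-5p shares its counts with miR-135a-5p, so the denominator is not of this hairpin alone. In these last hairpins the ranges of the ratio did not overlap between the targets.

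In 3 hairpins the arms passed in opposite directions on the TMM scale. On both other scales the higher arm of each passed and the lower arm, miR-25-3p, miR-222-5p or miR-19b-3p, did not. miR-25-3p was lower (-0.58 ± 0.15) and miR-25-5p higher (1.03 ± 0.25), and the 5p product stood at 0.80% to 1.31% of the 3p product in siSFPQ libraries and 0.24% to 0.43% in siNONO libraries. miR-222-3p was higher (0.62 ± 0.22) and miR-222-5p lower (-0.61 ± 0.18). In miR-19b-2 the 5p product was higher (0.81 ± 0.29) and miR-19b-3p lower, but the 3p sequence is also made by another hairpin and shares counts with miR-19a-3p. Summed over all hairpins, less abundant arms took 5.35% ± 0.596 of miRNA counts in siSFPQ and 6.82% ± 0.814 in siNONO libraries (SD, n = 6; exact permutation test, adjusted p = 0.0173). miR-335-3p, itself such an arm, is among the 5 most abundant miRNAs, and with these left out the order turned: 3.73% ± 0.208 against 3.08% ± 0.350 (exact permutation test, adjusted p = 0.0173).

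**Figure D5:**
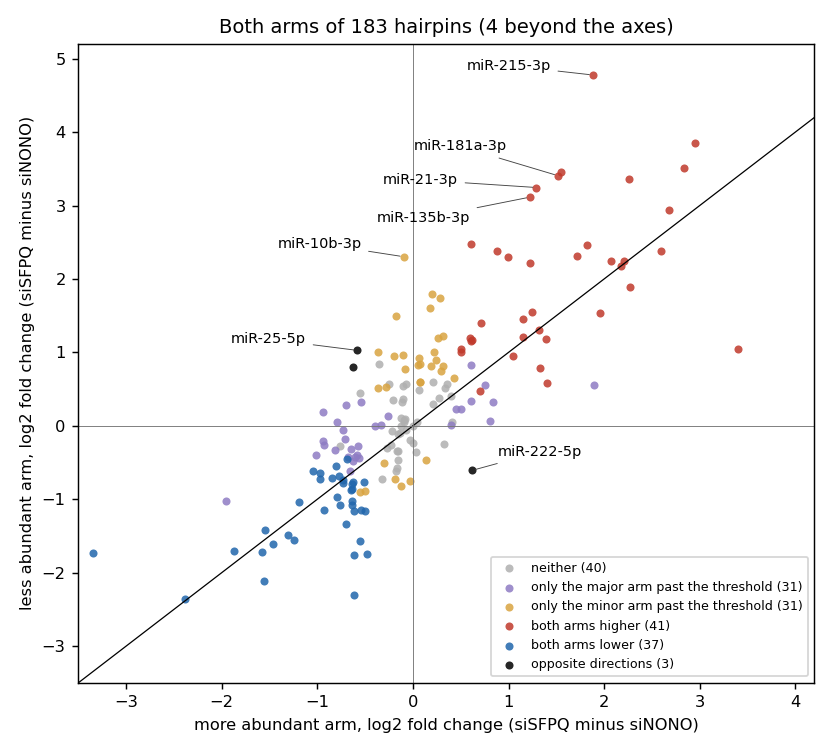
Log2 fold change, siSFPQ minus siNONO, of the more abundant arm (x axis) and the less abundant arm (y axis) of 183 hairpins, coloured by which arms passed, with a line at equality. Points above the line, such as miR-215-3p, miR-21-3p, miR-135b-3p and miR-10b-3p, have the larger log2 fold change in the less abundant arm; the 4 hairpins beyond the axes are miR-302a, miR-302b, miR-302c and miR-4796.

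Of the 626 miRNAs, 272 did not pass, and for 94 of these the 95% interval still reached a 2-fold difference, so a difference of that size was not excluded at this depth. For 80 miRNAs the interval lay within 1.5-fold in either direction, 1 of them past the threshold. The most abundant of them were miR-199a-3p with miR-199b-3p (23330 to 34948 CPM against 29819 to 35350; -0.23 ± 0.12, interval -0.47 to 0.01), miR-10a-5p (21880 to 28907 against 24865 to 32203; -0.10 ± 0.16) and miR-29c-3p (19503 to 27298 against 19276 to 26108; -0.03 ± 0.10, interval -0.23 to 0.17). These intervals are on the TMM scale, and on library totals miR-29c-3p was higher by 0.32 on the log2 scale (adjusted p = 0.00412).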

How the data were processed

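Small RNA of SBC-3 cells was sequenced after adding spike-in oligonucleotides, with a QIAseq miRNA kit, per the labels' protocols. The authors deposited whole-number counts for each locus of a mature miRNA and each spike-in, which featureCounts of Subread 2.0.3 made, per the file headers. Also named in the submitters' processing notes, without roles, are hg38, DESeq2 1.38.1, Trimmomatic 0.39, UMI-tools 1.1.1 and Bowtie 1.3.0. No source used here says whether molecular identifiers were collapsed. Counting intervals and floors cover counting error only.

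Of 2883 loci, the locus with the largest total was kept for each of 2652 mature miRNAs, and 52 spike-ins were left out. Names come from RefSeq mature entries by position (2364) or from the hairpin and arm (279), and 9 have no name. Host genes come from GENCODE v29 on the same strand. As sharing reads were marked 80 miRNAs in 32 groups, whose counts differed by at most 10% in each library (mean count 20 or more).

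Tests used edgeR 4.0.16 in R 4.3.3: filterByExpr with a minimum count of 10 (626 miRNAs, 99.97% of counts), TMM factors, a term per group with all 24 libraries fitted together (residual degrees of freedom 16, biological coefficient of variation 0.250), the quasi-likelihood test and Benjamini-Hochberg adjustment at 0.05. Standard errors were taken from the log2 fold change and the root of its F statistic. CPM use the TMM-scaled library size. The test was also run on simulated data with known changes. Library quantities were compared with exact permutation tests. Named were the 10 largest increases and 10 largest decreases past the threshold in the pooled contrast and in all 4 pairings of siRNAs whose mean reached 10 CPM, the 5 most abundant, up to 4 members per list that passed, the miR-302/miR-367 and miR-17/92 products, up to 3 miRNAs per direction differing between reagents, hairpins with opposed arms, groups of hairpins with at least 3 members past the threshold, and the 5 most abundant with an interval within 1.5-fold. The comparison, the lists and the rules were chosen with earlier results of these data known. Alternatives were RLE size factors, library totals, spike-in totals, no filter, a minimum mean of 10 CPM, averages over loci, only the 12 libraries, a replicate block, DESeq2 1.42.0, each library left out, and, chosen after seeing the data, siCtrl replicate 1 left out.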

Additional observations from a re-analysis of the deposited data

Results flagged for a closer look

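Both siRNAs against SFPQ were compared with each other, and 4 miRNAs were lower with siSFPQ-3 than with siSFPQ-2 (edgeR's quasi-likelihood test of that difference, 3 libraries each). miR-22-5p had 71.0 to 80.8 CPM with siSFPQ-2 and 29.5 to 45.2 CPM with siSFPQ-3, a log2 difference of -1.04; the siNONO libraries, at 22.7 to 41.1 CPM, overlapped the latter. miR-22-3p, from the same hairpin, had 559 to 640 and 323 to 381 CPM and differed by -0.80. miR-548b-3p had 10.2 to 13.6 and 2.94 to 5.43 CPM and differed by -1.52. miR-1322, in an intron of PINX1, had 0 counts in all siSFPQ-3 libraries and was detected in all siSFPQ-2 libraries, the lowest at 0.905 CPM, so the fitted difference of -4.72 is no bound. Its siNONO libraries had 3.30 to 9.46 CPM. In the pooled contrast with NONO knockdown, miR-22-5p differed by 0.84, miR-548b-3p by 0.53 and miR-22-3p by 0.07 (adjusted p = 0.588), values that average over reagents that differ.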

How the results depend on the processing

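The total of 354 miRNAs stayed within 1.5 times in every alternative. Leaving out single libraries gave 327 to 375, with siCtrl replicate 1 left out of the model 397. Lower calls fell to 93 on library totals and 95 with spike-in scaling, and higher calls to 121 among miRNAs with a mean of at least 10 CPM, where fewer miRNAs (394) were tested. Of 135 named miRNAs, 101 kept their direction and side of the threshold in every alternative, and 23 lost the call on library totals and 22 with spike-in scaling. On library totals miR-29b-3p turned from -0.34 to 0.0033 and miR-29c-3p from -0.03 to 0.32. The less abundant arms' share turned to 0.649 percentage points higher in siSFPQ libraries without the 5 most abundant miRNAs. With the replicate number as a block there were 195 higher and 178 lower, and 0 named miRNAs lost their call. In that replicate block 12 miRNAs differed between the SFPQ siRNAs and 1 between the NONO siRNAs. The numbers are not known to pair the libraries: 13 of 18 same-numbered pairs correlated above 0.1 (lowest -0.08), and 8 of 12 libraries correlated best with their own number. The 4 differences between the SFPQ siRNAs became 1 on spike-in totals, 0 at a mean of at least 10 CPM and 0 with only the 12 libraries, and ranged from 0 to 6 with single libraries left out. They were 0 without siSFPQ-2 replicate 1 or 3 or siSFPQ-3 replicate 1 or 2, and 1 without siSFPQ-3 replicate 3. Between the NONO siRNAs there were 7 with DESeq2 and 0 to 2 with single libraries left out (2 without siSFPQ-2 replicate 1, siSFPQ-3 replicate 1, 2 or 3, or siNONO-4 replicate 2). The cause of these changes was not tested. Depth limits rare miRNAs: intervals were widest under 10 CPM.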
